A study of Mus musculus with 12 samples.

Results

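Mouse hippocampal slices held for 2 h in an ischemic solution (IS) with DIDS were compared here with slices held for the same time in IS alone. DIDS is a stilbene disulfonate that blocks anion exchangers, bicarbonate cotransporters and several chloride channels. All slices came from C57BL/6J mice of mixed sex and were grown as organotypic cultures, in which slices of hippocampus keep their layered circuitry in a dish. The other groups of the study were slices in artificial cerebrospinal fluid (ACSF), titled Control ACSF, and slices in the same fluid with DIDS, titled ACSF + DIDS. Neither the composition of IS nor the dose of DIDS is given in the labels, which are also silent on whether the arrays represent separate cultures, so the p-values below measure only the spread between arrays. RNA was read on Illumina Mouse-6 BeadChips.

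The compared arrays were chosen by their titles and by the equality of files. The 12 scanner files held 9 distinct arrays, and 4 of these 9 enter the comparison: IS 1 and IS 3 against 2 arrays of IS + DIDS. An IS + DIDS array appears in the files of both IS + DIDS 1 and IS + DIDS 3 and was counted once. The other was filed both as IS + DIDS 2 and as ACSF + DIDS 1, so its group was provisional. The file titled IS 2 was left out because its signals equal those of ACSF + DIDS 3. IS 1 lay on chip 1 with Control ACSF 1 and 2, and the other arrays lay on chip 2, so chip was kept as a block and the values of the genes described most fully are also given against IS 3, the IS array on the same chip as the IS + DIDS arrays.

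The authors' processed value table bears on this membership, because its 12 columns are all distinct. Of these, 9 matched 1 scanner array each (lowest correlation 0.9973 over probes). The array filed as IS + DIDS 2 and ACSF + DIDS 1 correlated at 0.9999 with the column IS + DIDS 2 and at 0.9911 with the column ACSF + DIDS 1. The array filed as IS + DIDS 1 and 3 matched the column IS + DIDS 3, and the array filed as IS 2 and ACSF + DIDS 3 matched the column ACSF + DIDS 3. The 2 arrays are therefore called IS + DIDS 2 and IS + DIDS 3. The columns IS 2, ACSF + DIDS 1 and IS + DIDS 1 matched no scanner array (highest correlation 0.995), and their chip is not given in the sources used here. IS + DIDS 1 minus IS 2 is thus a pair of columns that the scanner arrays did not use, called the unused pair below, and the 12 columns allow 3 IS + DIDS against 3 IS. The column IS + DIDS 1 stood apart, with a score of 50.4 on the first principal component against -18.0 to 8.90 for the other 11, so values from the 3 against 3 comparison are also given without it. The title of the array ACSF + DIDS 2 disagrees with its description, which names IS with DIDS.

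Over the 9 distinct arrays the median raw signal was 69.5 to 83.6 except on IS 1, where it was 131.9, and each probe's mean rested on 35 to 36 beads in the median. Of 46628 probes, 17115 entered the test because at least 2 of the 8 fitted arrays detected them, and 5103 carried the name of 1 of 4470 genes. The 2 IS + DIDS arrays correlated at 0.995 and the 2 IS arrays at 0.986. Of the markers of hippocampal cells, 11 of 18 neuronal, 5 of 11 astrocytic, 3 of 13 microglial and 4 of 11 oligodendrocytic genes were tested, and 0 of 10 endothelial genes. The neuronal markers Map2, Syt1, Slc17a7 and Prox1 and the astrocyte marker Gfap were among those detected.

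Immediate early genes are transcribed within minutes of synaptic activity, calcium entry or growth factor signalling, without new protein synthesis, and many encode transcription factors that set off later waves of transcription. In the hippocampus they are widely used as a record of recent neuronal activity and of injury. The bicarbonate transporters of the Slc4 family, which DIDS inhibits, set the pH inside and around neurons and astrocytes.

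Among the probes that passed between IS + DIDS and IS, more were lower than higher, while 54.8% of all tested probes were higher. In the fit on 8 arrays 664 of 17115 probes passed (3.88%, adjusted p under 0.05), 250 of them higher (1.46%) and 414 lower (2.42%), and 3914 had an unadjusted p under 0.05. The 250 corresponded to 82 named genes and the 414 to 159. The gene lists below count each gene by its brightest probe, while the shares beside them are over all tested probes, named or not. Counted by brightest probe, 77 of the 4470 tested genes passed higher and 149 lower. A difference of at least 2-fold was reached by 10 of the higher and 55 of the lower probes, and the median of the passing probes was 0.49 in the higher and -0.61 in the lower set on the log2 scale. After median scaling in place of quantile normalization, 52 probes were higher and 1050 lower, or 4.72% of the calls higher against 37.7%, with the median of all tested probes at -0.07 against 0.01.

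The test had 3 residual degrees of freedom, and leaving out 1 array removed most calls. Without IS 1 or without Control ACSF 3, which both leave IS 3 as the reference, 118 probes passed. Without IS 3 the count was 15, without IS + DIDS 3 it was 1, and without IS + DIDS 2, Control ACSF 1 or Control ACSF 2 it was 0. With the replicate number as a block in place of the chip, 0 probes passed when the array matching the column IS + DIDS 3 was numbered 3, and 163 when it was numbered 1. With the provisional array counted as ACSF + DIDS, 0 passed.

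The 3 against 3 columns of the value table gave 524 passing probes of 17109 (3.06%), 136 higher (0.795%) and 388 lower (2.27%). Leaving out the IS + DIDS 1 column gave 508, and leaving out each of the other 5 gave 119 (without IS 1), 263 (IS 2), 386 (IS 3), 241 (IS + DIDS 2) and 215 (IS + DIDS 3). Both sources called 185 probes in the same direction, 34 higher and 151 lower, which is 27.9% of the scanner calls and 35.3% of the value table calls, and 0 in opposite directions. The sources share 4 of the 6 compared columns. In the unused pair, which the scanner fit did not see, 297 of the 414 lower probes were lower (71.7%, against 46.8% of all tested probes) and 167 of the 250 higher probes were higher (66.8%, against 53.2%). That pair has no replicate and includes the column IS + DIDS 1, which stood apart on the first principal component. Over the 17109 probes its difference had a rank correlation of 0.17 with the scanner difference.

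**Figure D1:**
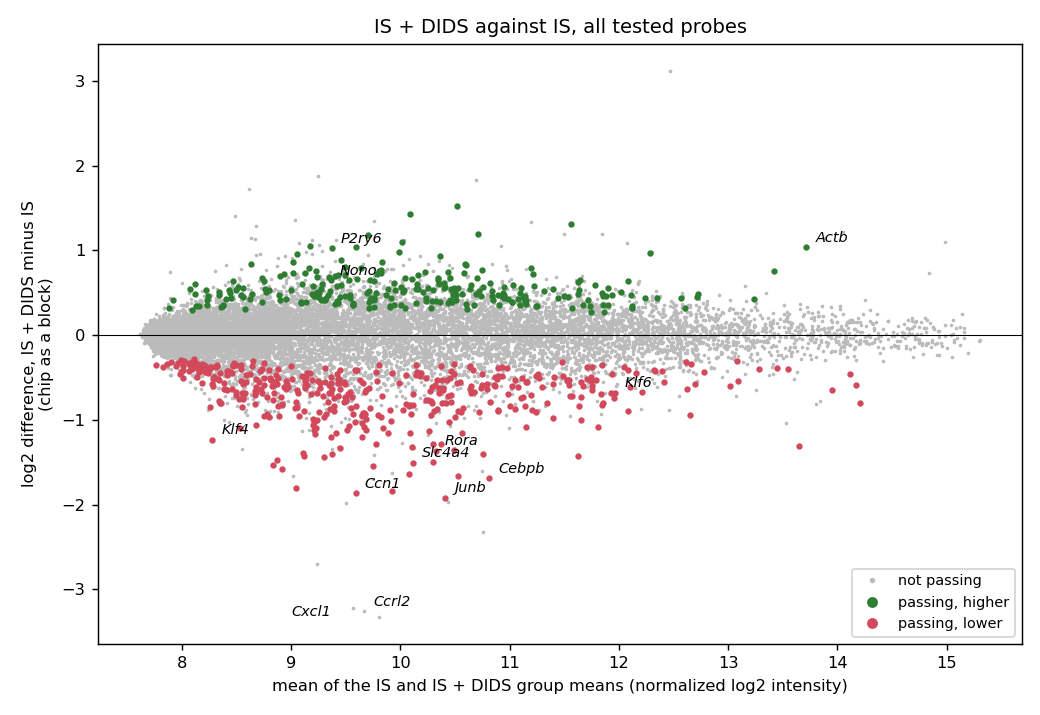
Log2 difference (IS + DIDS minus IS, chip as a block) of each tested probe against the mean of the 2 group means in normalized log2 intensity. The 414 passing lower probes (red) reach -1.92 and the 250 passing higher probes (green) reach 1.52, while Ccrl2 and Cxcl1 lie below -3 without passing.

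Within IS, 5 of 9 tested immediate early genes fell with DIDS. Of 33 listed genes, 11 had a named probe and 9 were tested. All 9 differences were below 0, and those that passed (against 2.42% of all tested probes) were Junb, Ccn1, Klf4, Klf6 and Klf2. In all 9 the groups did not overlap in either source (against 50.9% of all probes for 2 against 2 arrays and 22.9% for 3 against 3 columns). Their median difference was -0.64, against 0.01 over all tested probes, and -0.49 against IS 3 alone. In the 3 against 3 columns 8 of the 9 passed (against 2.27%), with a median of -1.14, and 7 did without the IS + DIDS 1 column. With columns of the same replicate number taken as a pair, and the pair as a block, 6 passed. In the unused pair 0 of the 9 were higher, with a median of -1.16. On the ACSF + DIDS 2 array the list was not low, with a mean level of 9.81 against 9.38 to 9.59 in Control ACSF, 9.46 to 9.68 in IS and 8.63 to 8.69 in IS + DIDS. The list was chosen with earlier results of these data known.

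The 250 bases before the transcription start are printed here for Junb, Ccn1 and Cebpb, the named genes with the largest falls that passed on the scanner arrays, and for Klf4, the immediate early gene with the largest value table difference. They are taken from RefSeq (GRCm38.p6), on the coding strand. Capitals mark the CRE half-site TGACG, read on either strand, the core of the element through which calcium and cyclic AMP act on transcription. The windows are chr3:145649986-145650235 (minus strand), chr8:84978749-84978998 (minus strand), chr4:55532476-55532725 (minus strand) and chr2:167688665-167688914 (plus strand).
Ccn1: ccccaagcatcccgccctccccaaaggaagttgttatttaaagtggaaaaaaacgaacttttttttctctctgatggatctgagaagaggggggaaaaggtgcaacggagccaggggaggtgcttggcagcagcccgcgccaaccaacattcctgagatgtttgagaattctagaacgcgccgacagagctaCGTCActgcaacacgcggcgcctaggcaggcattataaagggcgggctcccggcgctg
Junb: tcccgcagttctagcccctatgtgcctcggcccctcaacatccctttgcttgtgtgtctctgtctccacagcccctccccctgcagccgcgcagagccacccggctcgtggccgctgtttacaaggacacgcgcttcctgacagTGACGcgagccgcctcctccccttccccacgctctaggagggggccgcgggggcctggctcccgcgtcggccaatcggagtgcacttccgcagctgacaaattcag
Klf4: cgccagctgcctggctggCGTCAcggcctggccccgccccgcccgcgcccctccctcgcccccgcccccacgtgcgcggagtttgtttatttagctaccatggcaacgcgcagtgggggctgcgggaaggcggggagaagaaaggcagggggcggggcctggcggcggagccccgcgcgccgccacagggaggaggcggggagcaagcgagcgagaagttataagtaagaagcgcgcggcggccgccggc
Cebpb: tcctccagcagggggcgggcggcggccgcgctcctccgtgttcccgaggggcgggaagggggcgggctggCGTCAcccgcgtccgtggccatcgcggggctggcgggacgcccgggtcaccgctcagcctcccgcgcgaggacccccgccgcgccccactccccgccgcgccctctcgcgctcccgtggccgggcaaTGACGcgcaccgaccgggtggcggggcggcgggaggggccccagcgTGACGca
The half-site began 58 bases before the start of Ccn1, 106 before that of Junb and 232 before that of Klf4, and Cebpb held 3. At least 1 window of 7 of the 9 immediate early genes held it (Egr2 has several windows), as did 31.6% of the 3590 tested named genes with a window and 19.8% of the 27025 genes in the reference. Among genes that passed it was present in 36 of 123 lower genes (29.3%) and 22 of 69 higher genes (31.9%). The full CRE, TGACGTCA, which contains the half-site, and the AP-1 site TGANTCA were in 0 of the 9 immediate early genes and in 1.77% and 7.82% of all genes. TATAAA was in 2 of the 9 (14.3% of all), a CArG box in 1 (1.62%) and an NF-kappaB site in 2 (8.23%). These matches describe the letters of the windows only.

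Ccn1, a secreted matrix protein that signals through integrins, had a normalized log2 intensity of 10.37 on IS 1 and 10.60 on IS 3, and of 8.65 on IS + DIDS 2 and 8.74 on IS + DIDS 3. Both IS + DIDS arrays were far below both IS arrays and near the 8.58 ± 0.05 (SD, n = 3) of Control ACSF. Ccn1 fell 3.64-fold (log2 difference -1.86, SE 0.07, adjusted p = 0.0158), with a log2 difference of -1.91 against IS 3 alone. Without IS 1 or Control ACSF 3 its adjusted p was 0.0426, and without each of the other 5 arrays it was 0.0612 to 0.127. In the value table the IS columns held 10.48, 10.32 and 10.74 and the IS + DIDS columns 9.38, 9.03 and 9.13 (difference -1.34, adjusted p = 0.000561). The unused pair differed by -0.95.

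Junb, which pairs with Fos proteins in AP-1 complexes, read 11.83 and 11.09 on IS 1 and IS 3 and 9.44 and 9.28 on IS + DIDS 2 and 3. These levels with DIDS were also below Control ACSF, at 11.09 ± 0.15 (SD, n = 3), and below the 11.39 of the ACSF + DIDS 2 array. Junb fell 3.78-fold (log2 difference -1.92, SE 0.21, adjusted p = 0.0355), with -1.73 against IS 3 alone. The value table gave 11.85, 11.73 and 11.20 for IS against 10.54, 9.75 and 9.63 for IS + DIDS (difference -1.62, adjusted p = 0.0029), with -1.19 in the unused pair.

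Klf4, a zinc finger transcription factor induced by stress and growth signals, was detected on both IS arrays, at 9.08 and 8.70, and was not above background on either IS + DIDS array, at 7.66 on both. It was therefore at least 2.23-fold lower (adjusted p = 0.0415). A second probe of Klf4 also passed, with a smaller difference of -0.35 (adjusted p = 0.041). No offset was added here to the value table, whose earlier processing is not given. Its IS columns held 9.32, 9.40 and 9.14 and its IS + DIDS columns 6.63, 6.42 and 6.45 (difference -2.78, adjusted p = 1.16e-05), and the unused pair differed by -2.77. The Control ACSF level was 8.13 ± 0.17 (SD, n = 3), between the 2 groups.

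The other 2 passing genes are relatives of Klf4. Klf6, induced in injured tissue, read 12.54 and 12.22 in IS and 11.54 and 11.55 in IS + DIDS (log2 difference -0.68, SE 0.09, adjusted p = 0.0401; -0.68 against IS 3 alone), below the 12.97 ± 0.21 (SD, n = 3) of Control ACSF. Klf2, a regulator of quiescence in endothelial and immune cells, read 8.17 and 8.24 in IS and 7.84 and 7.77 in IS + DIDS (difference -0.41, adjusted p = 0.0405; -0.43 against IS 3 alone), where Control ACSF was at 7.80 ± 0.03 (SD, n = 3). In the value table they differed by -0.69 (adjusted p = 0.015) and -0.96 (adjusted p = 0.0123). The groups overlapped for neither gene in either source.

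The other 4 members did not pass on the scanner arrays and are given because the list is shown in full. Egr2, an activity-regulated zinc finger factor, read 8.44 and 8.11 in IS and 7.78 on both IS + DIDS arrays (difference -0.31, adjusted p = 0.594), far below the 10.19 ± 0.46 (SD, n = 3) of Control ACSF in either group. Its value table difference was -1.33 (adjusted p = 0.00861). Nr4a2, an activity-induced nuclear receptor, was at 8.58 ± 0.24 (SD, n = 3) in Control ACSF and at 10.94 on ACSF + DIDS 2. It read 9.43 and 9.21 in IS and 8.48 and 8.99 in IS + DIDS (adjusted p = 0.22). Nr4a3, its relative, was not above background on either IS + DIDS array, the IS mean being at least 1.102-fold higher (adjusted p = 0.35), and Fosl2, an AP-1 subunit, differed by -0.33 (adjusted p = 0.346). In the value table Nr4a3 differed by -1.14 (adjusted p = 0.0394, and 0.0559 with the pair as a block) and Fosl2 by -0.67 (adjusted p = 0.0488, 0.0559 with the pair and 0.095 without IS + DIDS 1). Nr4a2 was the member that missed the threshold there (-0.77, adjusted p = 0.0689).

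**Figure D2:**
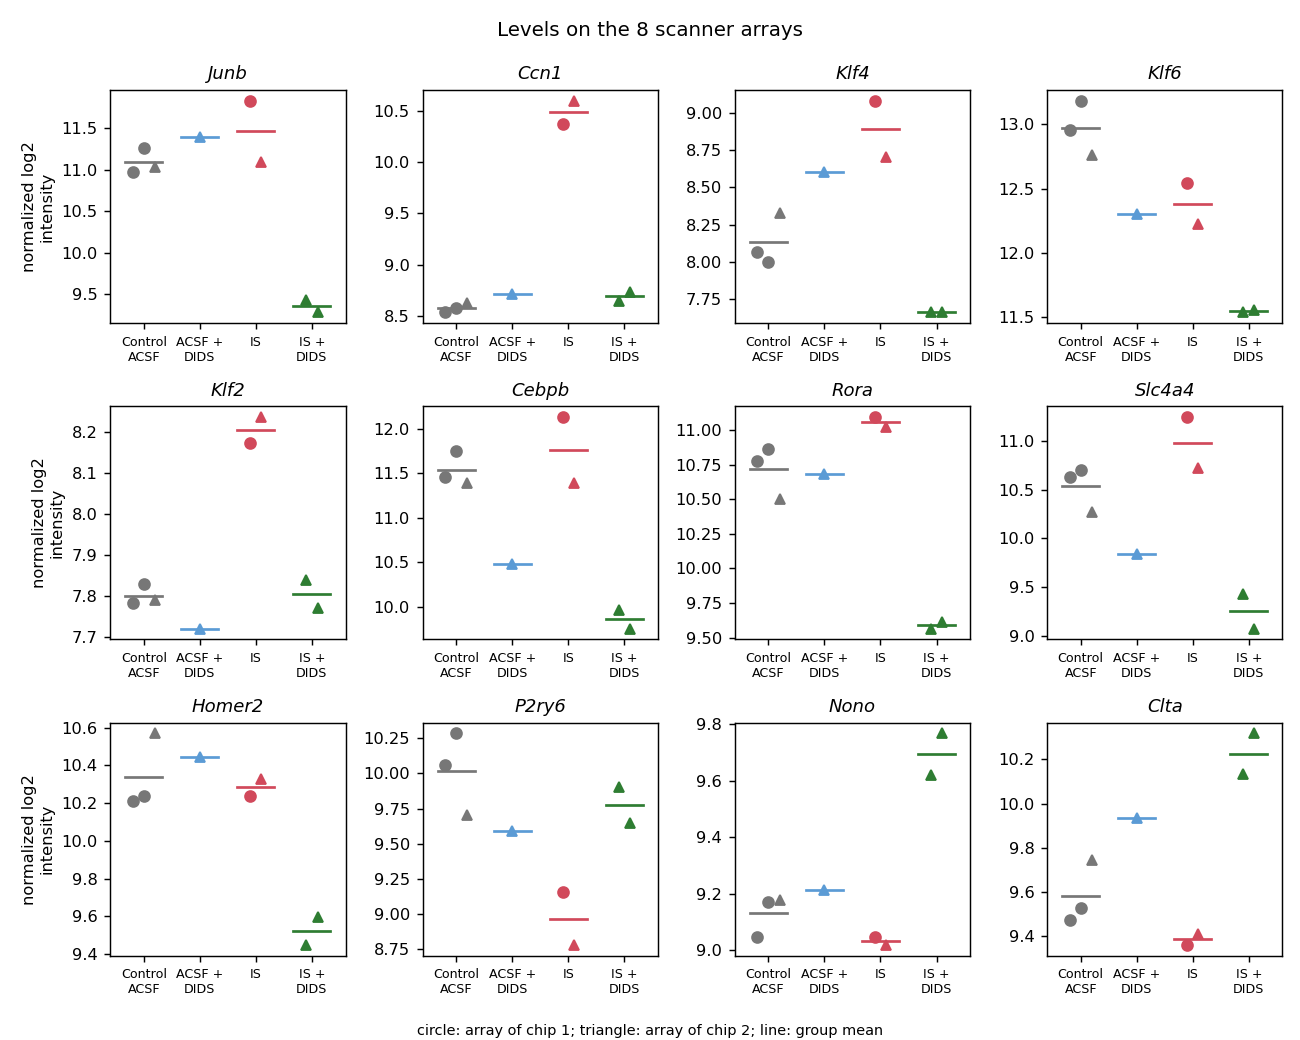
Normalized log2 intensity of 12 genes on the 8 scanner arrays, by group, with a line at each group mean; circles are arrays of chip 1 and triangles arrays of chip 2. The axes differ between genes and do not start at 0. In Junb, Klf6, Rora, Slc4a4 and Homer2 both IS + DIDS arrays lie below every other array, while in Ccn1 they lie near Control ACSF.

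Of 13 tested genes of inflammation, 1 passed on the scanner arrays by its brightest probe, Cebpb (against 2.42% of all tested probes), and 6 passed in the value table, all lower. The list holds 38 genes. A less bright probe of Stat3 also passed lower on the scanner arrays (-0.51, adjusted p = 0.0325). Its brightest probe did not (-0.37, adjusted p = 0.117), and neither passed in the value table (adjusted p = 0.727 for each). All 13 differences were below 0 on the scanner arrays, and the median of -0.56 was -0.22 against IS 3 alone. In the 3 against 3 columns the 6 calls stand against 2.27% of all tested probes, and the median was -1.32. The same number passed without IS + DIDS 1, and 7 with the pair as a block. In the unused pair 2 of the 13 were higher, by 0.52 and 0.68, with a median of -1.26. Values of IS 1 and of the column IS 2 were higher than those of IS 3 for most of these genes, and whether the chip or the raw signal of IS 1 had a part in this was not tested.

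Cebpb, which drives acute phase and endoplasmic reticulum stress transcription, read 12.13 and 11.39 on IS 1 and IS 3 and 9.96 and 9.75 on IS + DIDS 2 and 3. Both were also below the 11.53 ± 0.19 (SD, n = 3) of Control ACSF, and ACSF + DIDS 2 lay between at 10.48. Cebpb fell 3.22-fold (log2 difference -1.69, SE 0.19, adjusted p = 0.0362; -1.54 against IS 3 alone). The value table gave -1.54 (adjusted p = 0.00153), and the unused pair -1.25.

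Ccrl2, which binds the chemoattractant chemerin, was widely separated between the groups. It read 12.88 on IS 1 and 10.28 on IS 3, against 7.77 and 7.74 on IS + DIDS 2 and 3, and 7.98 ± 0.10 (SD, n = 3) in Control ACSF. The scanner difference of -3.26 (SE 0.68) did not pass (adjusted p = 0.0695) and was -2.53 against IS 3 alone. In the value table the IS columns held 12.65, 12.71 and 10.50 and the IS + DIDS columns 8.05, 7.11 and 6.97, a difference of -4.58 that passed (adjusted p = 0.000561). On the scanner arrays the IS + DIDS values were near the Control ACSF level. They were also near the 7.66 of Klf4 in IS + DIDS, which was not above background, so their distance from Control ACSF is poorly resolved. In neither source did the IS + DIDS values overlap with IS.

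Cxcl1, which attracts neutrophils, read 13.001 and 9.72 in IS and 7.77 and 7.75 in IS + DIDS (adjusted p = 0.192), and it was high in Control ACSF as well, at 11.58 ± 0.66 (SD, n = 3). Its value table columns held 12.91, 12.73 and 10.02 in IS and 7.37, 7.09 and 6.98 in IS + DIDS (difference -4.73, adjusted p = 0.00195). Ptgs2, the inducible cyclooxygenase of prostaglandin synthesis, read 10.31 and 8.05 in IS and was not above background on either IS + DIDS array, and the difference did not pass (adjusted p = 0.391). Against IS 3 alone the difference was -1.96 for Cxcl1, against -3.22 in the fit, and -0.38 for Ptgs2, against -1.02. In the value table it fell, from 10.15, 10.24 and 8.13 to 6.47, 6.43 and 6.64 (difference -3.00, adjusted p = 0.0029). IS 3 was the lowest of the 3 IS columns for both genes and still above every IS + DIDS column.

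Ptx3, a pentraxin of innate immunity, and Irf1, an interferon-induced transcription factor, also passed in the value table alone (-1.32, adjusted p = 0.000678, and -1.33, adjusted p = 0.0263). On the scanner arrays Ptx3 read 8.64 and 8.35 in IS and 7.92 and 7.80 in IS + DIDS (adjusted p = 0.081), and Irf1 9.71 and 8.20 against 7.96 and 8.004 (adjusted p = 0.376). Against IS 3 alone they differed by -0.50 and -0.22. For both, IS itself was below Control ACSF, at 10.21 ± 0.12 and 10.20 ± 0.19 (SD, n = 3). The chemokine Cxcl2 was 10.13 on IS 1 and 7.65 on IS 3, the latter not distinguishable from the 7.59 and 7.60 of IS + DIDS, and did not pass in either source (adjusted p = 0.571 and 0.0573). The microglial markers did not move the same way. Csf1r, C1qa and C1qb, 3 of 13 listed, were each higher with DIDS without passing (0.32, 0.41 and 0.31, adjusted p = 0.396, 0.349 and 0.385), with list means of 10.79 and 10.53 in IS and 11.04 and 10.57 in IS + DIDS that overlap.

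**Figure D3:**
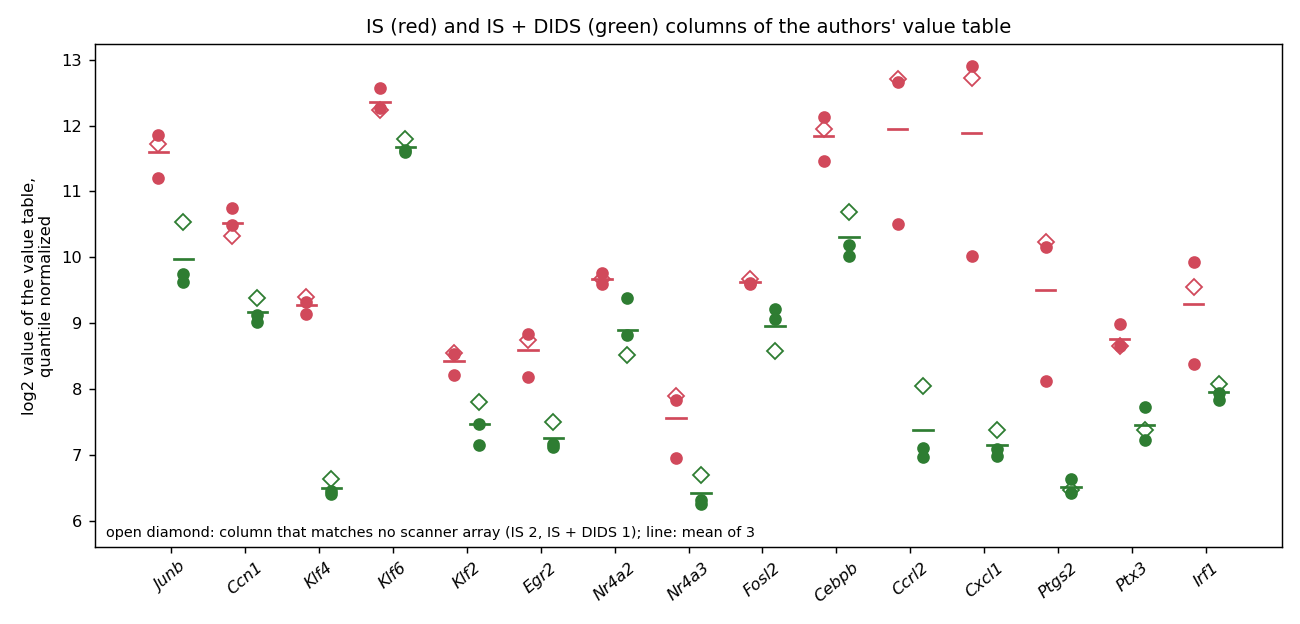
Log2 values of 15 immediate early and inflammation genes in the 3 IS columns (red) and 3 IS + DIDS columns (green) of the value table, after quantile normalization, with a line at each mean. Open diamonds are the columns IS 2 and IS + DIDS 1, which match no scanner array. The 2 groups do not overlap for any of the 15 genes. The 9 immediate early genes are all those tested, but the 6 inflammation genes are those that passed in these columns, so their lack of overlap is not a separate result. Of all 13 tested inflammation genes 9 did not overlap, against 22.9% of all tested probes.

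The targets of DIDS themselves did not move together. Of 60 listed genes of anion and bicarbonate transport, 16 were tested, 5 higher and 11 lower, with a median of -0.11. In each direction 1 passed, Slc4a4 (against 2.42% of all probes lower) and Slc4a2 (against 1.46% higher). In the 3 against 3 columns 0 passed (against 3.06% of all probes), or 1 without IS + DIDS 1. Slc4a4, the sodium bicarbonate cotransporter of astrocytes, read 11.25 and 10.72 in IS and 9.43 and 9.07 in IS + DIDS, with 10.53 ± 0.23 (SD, n = 3) in Control ACSF and 9.84 on ACSF + DIDS 2. It fell 2.84-fold on the scanner arrays (difference -1.51, SE 0.14, adjusted p = 0.0322; -1.47 against IS 3 alone). The unused pair did not show this, at -0.07, and the value table columns held 11.31, 10.85 and 10.85 in IS against 10.77, 9.76 and 9.44 in IS + DIDS (difference -1.01, adjusted p = 0.109, and 0.0174 without IS + DIDS 1). The column IS + DIDS 1 was therefore close to IS for this gene.

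Slc4a2, an anion exchanger, rose by a log2 difference of 0.34 on the scanner arrays (adjusted p = 0.0465), from 11.21 and 11.05 to 11.38 and 11.33, where Control ACSF was at 11.29 ± 0.16 (SD, n = 3). The other tested members of the family were the anion exchanger Slc4a3 (-0.33, adjusted p = 0.46) and the sodium-coupled transporters Slc4a7 (-0.21, adjusted p = 0.7) and Slc4a8 (0.02, adjusted p = 0.878). Vdac3, a channel of the outer mitochondrial membrane, read 9.98 and 10.18 in IS and 10.53 and 10.84 in IS + DIDS without passing (adjusted p = 0.176).

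Among the other genes with large falls, Rora was called by both sources. This nuclear receptor, which drives clock gene transcription, read 11.09 and 11.02 in IS and 9.56 and 9.61 in IS + DIDS, against 10.71 ± 0.19 (SD, n = 3) in Control ACSF. It fell 2.57-fold (difference -1.36, SE 0.09, adjusted p = 0.0238; -1.43 against IS 3 alone), and by 1.14 on the log2 scale in the value table (adjusted p = 0.000834; unused pair -0.90). Clock, a core factor of the circadian oscillator, differed by -0.51 in both sources (adjusted p = 0.0956 on the scanner arrays, 0.0358 in the value table and 0.0771 without IS + DIDS 1). Maml2, a Notch coactivator, fell by 1.12 on the log2 scale, from 10.57 and 10.15 to 9.13 and 8.89 (adjusted p = 0.027), and by 1.13 in the value table (adjusted p = 0.00178; unused pair -1.10).

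Arrdc3, an arrestin family protein, read 11.22 and 11.12 in IS and 10.10 and 9.80 in IS + DIDS, the latter near the 9.75 ± 0.19 (SD, n = 3) of Control ACSF (difference -1.15, adjusted p = 0.0405). Rasl10b, a small GTPase, read 10.16 and 10.62 in IS and 9.38 on both IS + DIDS arrays, below the 10.48 ± 0.10 (SD, n = 3) of Control ACSF (difference -1.16, adjusted p = 0.0262). Both passed in the value table (-1.06, adjusted p = 0.00103, and -1.03, adjusted p = 0.00224) and in the unused pair they differed by -1.08 and -1.36. Tmcc2, a transmembrane protein of the endoplasmic reticulum, fell by 1.39 on the log2 scale (adjusted p = 0.0238), with -0.80 in the value table (adjusted p = 0.0391) and -0.26 in the unused pair. Bcl2, the inhibitor of apoptosis, was lower by 0.68 on the log2 scale, from 8.97 and 8.78 to 8.11 and 8.10 (adjusted p = 0.0383), and differed by -1.02 in the value table (adjusted p = 0.000561; unused pair -0.94). Control ACSF was at 8.99 ± 0.14 (SD, n = 3), level with IS.

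The remaining large falls of named genes on the scanner arrays were not called in the value table without a chip block, and with one Msn was (adjusted p = 0.0404). They were Adgrl1, an adhesion receptor of synapses (-1.36, adjusted p = 0.0325), Celsr2, a cadherin of planar polarity (-1.21, adjusted p = 0.0409), Lpar4, a lysophosphatidic acid receptor (-1.11, adjusted p = 0.0325), and Msn, which ties actin to the membrane (-1.16, adjusted p = 0.0383). The unused pair lay on the other side for Adgrl1 (0.16), Celsr2 (0.29) and Lpar4 (0.10, whose value table adjusted p was 0.00367 without IS + DIDS 1), and on the same side for Msn (-1.55). Fryl had the named probe at -1.29 (adjusted p = 0.0325; 0.07 in the unused pair), while its other 2 probes differed by -0.20 and -0.30 without passing. Of probes without a gene name, scl29180.1.209_0-S fell on the scanner arrays (-1.85, adjusted p = 0.0381) and lay at 0.44 in the unused pair, while scl47614.23.1_38-S fell in both sources (-1.81, adjusted p = 0.0383; value table -1.37, adjusted p = 0.00541).

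Genes higher with DIDS moved less, and fewer were called by both sources. Of the 15 largest named rises, P2ry6, Clta and Tmx2 passed in both. P2ry6, a receptor for uridine nucleotides that triggers microglial phagocytosis, read 9.15 and 8.78 in IS and 9.90 and 9.64 in IS + DIDS, close to the 10.01 ± 0.29 (SD, n = 3) of Control ACSF. It rose 2.03-fold (difference 1.02, SE 0.13, adjusted p = 0.0383; 1.00 against IS 3 alone), and by 0.79 on the log2 scale in the value table (adjusted p = 0.0173; unused pair 1.01). Clta, a clathrin light chain, read 9.36 and 9.41 in IS and 10.13 and 10.32 in IS + DIDS, above the 9.58 ± 0.14 (SD, n = 3) of Control ACSF (difference 0.76, adjusted p = 0.0383; 0.65 in the value table, adjusted p = 0.0166). Tmx2, a thioredoxin-related membrane protein, differed by 0.73 (adjusted p = 0.0405; 0.60 in the value table, adjusted p = 0.0291).

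Nono, an RNA-binding protein of nuclear paraspeckles, read 9.05 and 9.02 in IS and 9.62 and 9.77 in IS + DIDS. Both IS + DIDS arrays were above all other arrays, with Control ACSF at 9.13 ± 0.07 (SD, n = 3) and ACSF + DIDS 2 at 9.21. Nono rose 1.57-fold (difference 0.65, SE 0.08, adjusted p = 0.0393; 0.68 against IS 3 alone), and by 0.55 on the log2 scale in the value table (adjusted p = 0.00861), where the 3 IS columns held 9.46, 9.42 and 9.41 and the 3 IS + DIDS columns 9.93, 9.94 and 10.06. Of the 36 tested genes of splicing and RNA binding, Nono was the 1 scanner call upward (against 1.46% of all tested probes). Hnrnpdl was the 1 downward (-0.46, adjusted p = 0.0445, against 2.42%), and it did not pass in the value table (-0.62, adjusted p = 0.383). Nono and Prpf38a (0.55, adjusted p = 0.0394) passed higher there, against 0.795% of all tested probes.

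The other large named rises passed on the scanner arrays and not in the value table, except Ccdc86 with a chip block there (0.53, adjusted p = 0.0323). Actb, the cytoskeletal actin, had a probe at 1.04 (adjusted p = 0.0238), but its brighter probe differed by 0.20 (adjusted p = 0.0915), and the unused pair lay at -0.31. Kirrel3, a synaptic adhesion protein (1.04, adjusted p = 0.0406), and Tra2b, a splicing regulator (0.79, adjusted p = 0.0463), were lower in the unused pair, at -0.42 and -0.82, and AI593442 (0.83, adjusted p = 0.0325) at -0.93. The rest were Saysd1, Iah1, 2310009B15Rik, Slc39a1, a zinc transporter, Aldh3b1, an aldehyde dehydrogenase, Coa8, an assembly factor of cytochrome c oxidase, Ccdc86 and Pcp4l1, with differences of 0.69 to 0.86. All 8 of these were higher in the unused pair except Coa8, at -0.05. The probes scl19537.3.2_222-S (1.19, adjusted p = 0.0383) and scl33340.4_635-S (1.18, adjusted p = 0.0468), which have no gene name, lay at -1.21 and -0.43 there.

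Genes of the mitochondrial ribosome and import machinery were slightly higher with DIDS on quantile-normalized arrays. Of 43 tested, 35 were higher (against 54.8% of all tested probes) and 4 passed (against 1.46%). The median was 0.16, or -0.03 after median scaling, which moved the median of all probes to -0.07. The 4 were Mrps24 (0.44, adjusted p = 0.0372), Mrpl1 (0.44, adjusted p = 0.0441) and Mrps12 (0.36, adjusted p = 0.0458), subunits of the ribosome, and Timm10b (0.38, adjusted p = 0.0401), an import chaperone. Timm10b alone also passed in the value table (0.46, adjusted p = 0.031, and 0.0676 without IS + DIDS 1), against 0.795% of all tested probes higher. The proteasome genes had 16 of 20 higher (against 54.8%) and a median of 0.16, which stayed above 0 after median scaling, at 0.05. Psmb10, a subunit of the immunoproteasome, was the 1 call on the scanner arrays (0.53, adjusted p = 0.0471, against 1.46% of all tested probes higher). Psmc6, an ATPase of the cap, was the 1 in the value table (0.59, adjusted p = 0.00861, against 0.795%).

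On the scanner arrays the medians of the respiratory chain and the cytosolic ribosome were close to that of all probes. In the unused pair they were 0.25 and 0.17, with 30 of 36 and 52 of 64 genes higher, against 53.2% of all tested probes. Of 36 tested genes of oxidative phosphorylation, 26 were higher (against 54.8% of all tested probes), with a median of 0.06 (-0.03 after median scaling). Ndufb5, a subunit of complex I, was the 1 that passed (0.44, adjusted p = 0.0468), against 1.46% of all tested probes higher. Ndufb4, of the same complex, passed in the value table (0.55, adjusted p = 0.035, and 0.0627 without IS + DIDS 1), and Cox7b, of cytochrome c oxidase, in neither (0.46, adjusted p = 0.144). The cytosolic ribosomal proteins had 33 of 64 higher and a median of 0.02 (-0.05 after median scaling). Rps6, Rpl12 and Rpl32 passed (0.59, 0.47 and 0.42, adjusted p = 0.0325, 0.0409 and 0.0383, against 1.46% of all tested probes), while Rpl30 did not (0.57, adjusted p = 0.0967). In the value table these 3 did not pass (adjusted p = 0.109, 0.183 and 0.177). The 1 ribosomal call there was Rpl4 (0.68, adjusted p = 0.0278), against 0.795% of all tested probes higher.

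**Figure D4:**
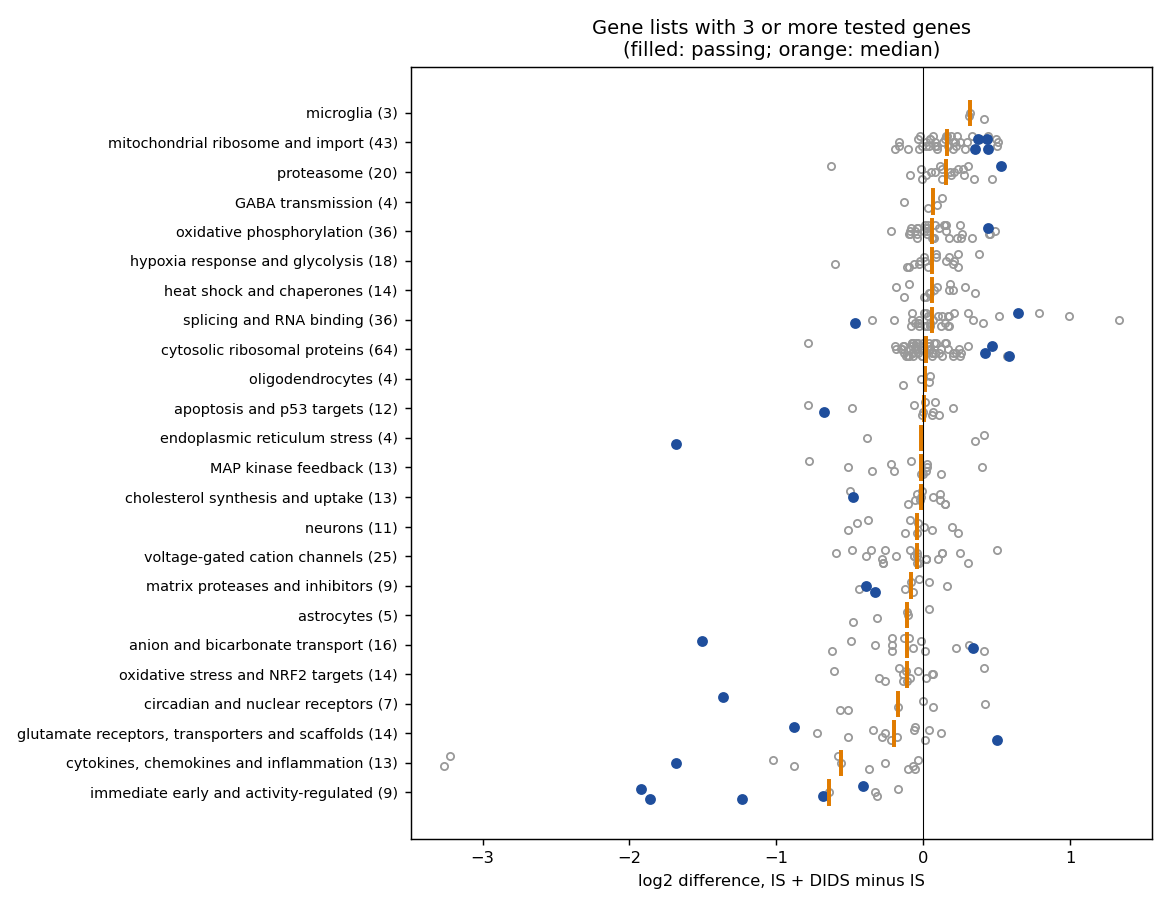
Log2 difference (IS + DIDS minus IS, chip as a block) of each tested gene, for lists with 3 or more tested genes, with the number tested in brackets, filled points for genes that passed and an orange line at the list median. The medians of the immediate early (-0.64) and inflammation lists (-0.56) lie lowest, and the other medians shown lie between -0.20 and 0.32.

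Lists of stress and excitability genes are given beside the 3.88% of all probes that passed on the scanner arrays and the 3.06% in the value table. In lists this small a count of 0 is not read as a result. Of 14 heat shock genes, 13 of MAP kinase feedback, 14 of the NRF2 response, 18 of hypoxia and glycolysis, 25 voltage-gated cation channels and 4 of GABA transmission, 0 passed in either source, with medians of 0.06, -0.01, -0.11, 0.06, -0.04 and 0.07, of which the 3 above 0 were below it after median scaling (-0.08, -0.03 and -0.11). The endoplasmic reticulum stress list had 4 tested genes and 1 call, Cebpb. Of 14 genes of glutamate transmission, Pick1, which moves AMPA receptors out of the synapse, passed upward (0.51, adjusted p = 0.0325; -0.12 in the unused pair), and Homer2, a scaffold of metabotropic receptors, downward. Homer2 read 10.24 and 10.33 in IS and 9.45 and 9.60 in IS + DIDS, below all other arrays (difference -0.88, adjusted p = 0.0355; value table -0.63, adjusted p = 0.0132).

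Smaller falls were found for single genes of the lists of matrix proteases and of cholesterol, whose medians were -0.08 and -0.01. By the brightest probe, 2 of 9 tested matrix genes passed lower on the scanner arrays and 1 in the value table. For the 13 tested cholesterol genes these counts were 1 and 0. Of all tested probes 2.42% and 2.27% passed lower in the 2 sources. Adamts1, a protease of matrix proteoglycans, differed by -0.33 (adjusted p = 0.0415; value table -0.76, adjusted p = 0.00572). Its levels of 8.08 and 8.13 in IS and 7.83 and 7.82 in IS + DIDS were both below the 9.74 ± 0.08 (SD, n = 3) of Control ACSF. Timp3, a protease inhibitor, and Stard4, a sterol carrier, passed on the scanner arrays (-0.39, adjusted p = 0.0389, and -0.47, adjusted p = 0.0457), and in the value table a second probe of Timp3 did (-0.81, adjusted p = 0.0105). Of 12 apoptosis genes, Bcl2 was the 1 that passed on the scanner arrays (against 2.42% of all tested probes lower). Casp8, the initiator caspase, was higher in the value table (0.87, adjusted p = 0.0134, against 0.795% of all tested probes higher). Its scanner difference was 0.20 (adjusted p = 0.144). Marker genes of neurons, astrocytes, microglia and oligodendrocytes had 0 calls among 11, 5, 3 and 4 tested genes, with medians of -0.04, -0.11, 0.32 and 0.01 (-0.11, -0.29, 0.14 and -0.11 after median scaling), where 3.88% of all probes passed. Without IS + DIDS 1, 1 astrocyte marker passed lower in the value table. In these bulk samples fewer cells of a type and less RNA per cell cannot be told apart.

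Genes that passed lower spanned more of the genome than genes that passed higher. The span of a gene from start to end of its RefSeq annotation (GRCm38) had a median of 26.1 kb over the 4470 tested genes, 84.1 kb over the 159 genes that passed lower and 11.998 kb over the 82 that passed higher. Divided into 4 groups of equal size by span, the genes of the longest group, above 66.5 kb, held 93 lower and 4 higher calls, and those of the shortest group, up to 10.03 kb, held 12 lower and 35 higher, with each gene counted by its brightest probe. The median difference ran from 0.06 in the shortest through 0.04 and 0.00 to -0.07 in the longest group. Against IS 3 alone it ran from 0.07 to -0.08 for IS + DIDS 2 and from 0.07 to -0.05 for IS + DIDS 3. In the unused pair it was 0.17, 0.13, 0.05 and -0.03. Across the 4470 genes, which share arrays and are not independent, the rank correlation of span and difference was -0.31 on the scanner arrays and -0.18 in the unused pair. The median intensity was 9.65 in the shortest and 8.87 in the longest group, and its part in this was not tested.

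**Figure D5:**
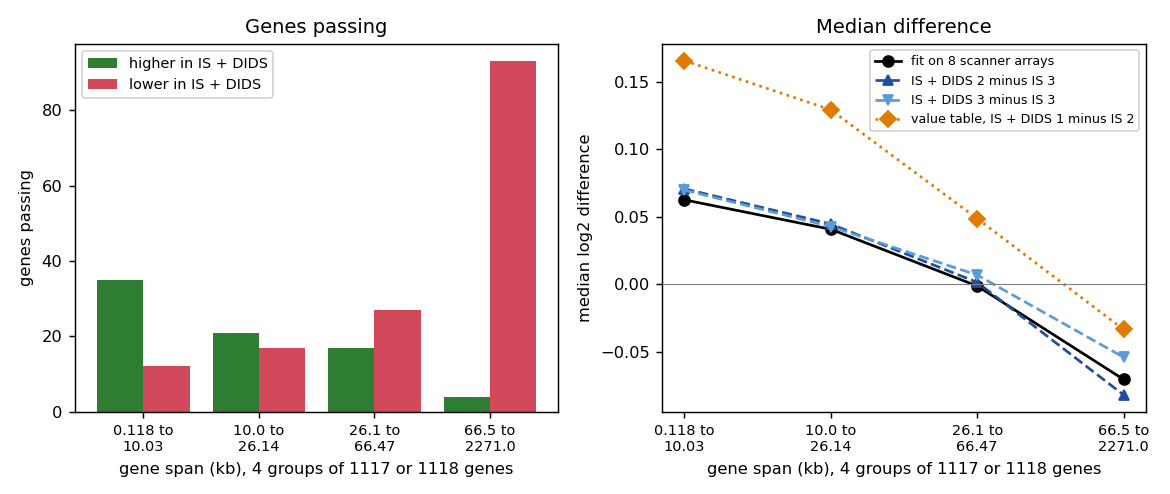
Left, number of genes that passed, higher or lower in IS + DIDS, in 4 groups of genes by span in kb; right, median log2 difference of all genes of each group in the fit, for each IS + DIDS array against IS 3, and in the unused pair of value table columns. Lower calls rise from 12 to 93 from the shortest to the longest group, and all 4 medians decrease from left to right.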

How the data were processed

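Total RNA of 12 samples was hybridized to Illumina Mouse-6 v1.1 BeadChips. Per the file headers, the scanner files were exported with BeadStudio 2.3.47 without normalization, and the submitters' processing notes name BeadStudio 2.0. The deposited intensity is the mean over a probe's beads, and the deposited detection score is a fraction near 1 for detected probes. The authors' value table holds intensity on a linear scale for 46301 probes. Its column medians lie between 80.6 and 82.5, and its normalization is not given in the sources used here.

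Intensities of the 8 arrays were background-corrected, quantile-normalized and log2-transformed with neqc (limma 3.58.1, R 4.3.3; offset 16, negative controls inferred from detection). Probes detected (score above 0.99) on 2 or more arrays were fitted by group with chip as a block (lmFit, eBayes, 3 residual degrees of freedom, Benjamini-Hochberg threshold 0.05). The value table was quantile-normalized and fitted over 12 columns without a chip block. Adjusted p-values in the text are limma's. The code was tested on simulated data. The number of arrays limits the precision.

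Where a group was not above background, the fold is a lower bound set by the lowest signal detected. Scanner levels near the 7.66 of Klf4 in IS + DIDS lie close to background. Differences down to such levels were smaller on the scanner arrays than in the value table for Klf2 (-0.41 against -0.96), Egr2 (-0.31 against -1.33) and Adamts1 (-0.33 against -0.76). Probe names carry gene numbers, and 9805 probes were named through RefSeq, leaving 36823 unnamed. For the block by pair, value table columns of the same replicate number were taken as a pair, which the labels do not state. Deviations from the group means correlated at 0.197, 0.142 and 0.130 within numbers and at -0.25 to 0.058 between them. These deviations cancel out within each group, so the correlations are not independent of each other and cannot establish the pairing.

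Named genes were the 15 largest passing differences in each direction without overlap, up to 4 genes of each list by p, the Slc4 family and 10 genes named in earlier results. Of these, those the results turn on are described. Egr2, Fosl2, Nr4a2, Nr4a3, Cxcl1, Cxcl2, Ptgs2, Irf1, C1qa, C1qb and Csf1r were chosen after their values were seen or to show a list in full. The members and lists were chosen with earlier results of these data known. Alternatives were other background corrections, scalings, filters, blocks, memberships and left-out arrays. The fits on all 12 value table columns, the unused pair and the values against IS 3 alone were added after seeing the data.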

Additional observations from a re-analysis of the deposited data

How the results depend on the processing

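No alternative turned a passing probe into a call of the opposite direction, but the count of 664 depended on the fit. It was 216 without a chip block, 1102 with median scaling, 28 without a filter on detection, 1044 with trend and robust estimates and 1912 at an adjusted p under 0.1. With the replicate block in place of the chip it was 163 with the shared IS + DIDS array numbered 1 and 0 with it numbered 3, and for the value table columns the block gave 618 against 524. Limma called 0 with the IS and IS + DIDS arrays alone, with chip 2 alone, and with the provisional array counted as ACSF + DIDS (3104, 3737 and 2656 probes at an unadjusted p under 0.05), and 0 against a fold of 1.5 (178). Counting the array titled IS 2 as IS gave 386 and as ACSF + DIDS 433, and counting ACSF + DIDS 2 as IS + DIDS gave 151. Leaving out 1 array gave 0 to 118 on the scanner arrays and, in the value table, 119 (IS 1), 263 (IS 2), 386 (IS 3), 508 (IS + DIDS 1), 241 (IS + DIDS 2) and 215 (IS + DIDS 3). A chip block there gave 412. The cause of these changes was not tested, apart from the fewer arrays or probes that enter some of them. Of 26 list medians, 22 moved by at least the spread of the list between arrays, and 20 had the opposite sign, under at least 1 setting. Of 77 genes and probes, 24 had the opposite sign under at least 1 setting. A change of sign was called a reversal where the gene passed in the main fit or under that setting, and 16 reversed. In the unused pair these were Adgrl1 (0.16), Fryl (0.0706), Celsr2 (0.29), Lpar4 (0.10), Actb (-0.31), Kirrel3 (-0.42), AI593442 (-0.93), Tra2b (-0.82), Coa8 (-0.0465), Mrps24 (-0.11), Pick1 (-0.12), scl29180.1.209_0-S (0.44), scl33340.4_635-S (-0.43) and scl19537.3.2_222-S (-1.21). With 1 value table column left out, reversed values were -0.0702, -0.0329 and -0.0511 for AI593442 and -0.117, -0.027 and -0.0558 for Tra2b (without IS 3, IS + DIDS 2 and IS + DIDS 3), and -0.0048, -0.333, -0.183 and -0.0687 for scl19537.3.2_222-S (without IS 1 and the same 3). Hnrnpdl was 0.42 with the array titled IS 2 counted as IS, and Slc39a1 was -0.0095 with the replicate block numbered 1.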
